A study of Mus musculus with 4 samples.

Results

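Hepatocyte identity is held by a small set of DNA-binding transcription factors that occupy each other's promoters and the enhancers of liver genes. HNF4A and NR5A2 (LRH-1) are nuclear receptors, HNF4A being needed for hepatocyte differentiation and NR5A2 for bile acid and cholesterol genes. The FOXA proteins are pioneer factors that open liver enhancers, the C/EBP proteins are basic leucine zipper factors of metabolism and the acute phase, and ONECUT1 (HNF6) acts in liver and bile duct development. The 8 genes described here, Hnf4a, Nr5a2, Foxa1, Foxa2, Foxa3, Cebpa, Cebpb and Onecut1, were chosen by name, out of 23521 genes measured. All 8 passed the filter on low values, a mean of at least 1 RPKM, reads scaled to transcript length and library size, over all libraries, as did 10209 genes in all.

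Poly(A) RNA was sequenced from Hepa1-6, a mouse hepatoma line. The Chd1KD libraries (n = 2) came from cells given lentivirus with shRNA against Chd1, a chromatin remodeler that reads methylated histone H3. The Control libraries (n = 2) came from cells given scrambled shRNA. All cells carried a lentivirus and were kept in 4 μg/ml puromycin for 3 weeks. The number of shRNAs used, and separate transductions for the libraries of a group, are not stated in the labels. The spread behind every p-value may therefore be technical, and a single line limits the results to it.

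Chd1 itself measured 10.4 and 11.3 RPKM in Chd1KD libraries, against 21.4 and 22.5 RPKM in Control libraries, a log2 fold change of -0.96 with an SE of 0.07 (limma, adjusted p = 0.012). That call was lost when all genes above 0 were tested (limma, adjusted p = 0.25). Summed RPKM lay between 459381 and 484490 per library. Across tested genes, libraries correlated at r = 0.990 to 0.995, and Control replicate 2 was closer to Chd1KD replicate 2 (r = 0.994) than to Control replicate 1 (r = 0.992). The read depth is unknown, so no counting interval is given.

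The hepatocyte label was checked against 15 secreted hepatocyte proteins. Of these 7 were tested, 8 had a mean under 1 RPKM, and 6 of those 8 were listed at 0 in all libraries (Ttr, Apoh, Fga, Fgg, Serpina1a and Hp). Rbp4, the plasma retinol carrier, was the most abundant, with 272.4 and 338.7 RPKM in Chd1KD and 377.9 and 430.0 RPKM in Control. Trf (transferrin), Afp (alpha-fetoprotein, a fetal liver protein) and Alb (albumin) lay between 18.6 and 91.3 RPKM in every library. Over the 7 tested, the median log2 fold change was -0.16 and none passed the test between groups (limma, adjusted p of at least 0.077). A listed 0 is not proof of absence: 10 genes averaging 5 RPKM or more had a 0 in some library. Of 15 matched markers of macrophages, endothelium and lymphocytes, none reached a mean of 1 RPKM, 10 were at 0 in all libraries, and their summed level was 0.43 to 0.48 RPKM in Chd1KD and 0.43 to 0.69 RPKM in Control. All 13 transcription factors of other endoderm lineages, such as Pdx1 and Cdx2, were listed at 0. Genes of fibroblast and epithelial-mesenchymal programmes were present in part, with Fn1 (fibronectin) at 682.3 to 810.4 RPKM and Vim (vimentin) at 113.8 to 134.6 RPKM, while Col3a1, Acta2 and Pdgfrb were listed at 0. Over the 7 tested genes of those programmes the median log2 fold change was 0.07, with none called (limma, smallest adjusted p = 0.16).

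The start-site regions below are shown for the 2 factors that the transcript data bear on most, Nr5a2, whose rows in the deposited table start at different sites, and Hnf4a, the most abundant factor, and for Foxa1, the only factor with a forkhead motif in this window. Each runs from 250 bases before to 50 bases after a RefSeq start site (GRCm38.p6), 5′ to 3′ in the direction of transcription. Capitals mark motif matches on either strand.
Nr5a2, upstream start, chr1:136960399-136960698, minus strand: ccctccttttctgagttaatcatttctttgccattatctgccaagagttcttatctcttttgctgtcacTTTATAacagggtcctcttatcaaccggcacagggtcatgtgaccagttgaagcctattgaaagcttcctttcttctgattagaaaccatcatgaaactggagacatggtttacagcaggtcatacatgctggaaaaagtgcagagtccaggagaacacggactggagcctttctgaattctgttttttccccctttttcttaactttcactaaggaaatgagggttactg
Nr5a2, downstream start, chr1:136953581-136953880, minus strand: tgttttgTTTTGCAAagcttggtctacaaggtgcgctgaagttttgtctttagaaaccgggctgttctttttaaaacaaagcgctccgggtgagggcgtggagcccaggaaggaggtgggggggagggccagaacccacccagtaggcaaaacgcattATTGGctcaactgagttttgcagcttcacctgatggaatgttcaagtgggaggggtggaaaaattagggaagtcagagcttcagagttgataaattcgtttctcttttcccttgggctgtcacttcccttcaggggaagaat
Hnf4a, start of the measured transcript, chr2:163546905-163547204, plus strand: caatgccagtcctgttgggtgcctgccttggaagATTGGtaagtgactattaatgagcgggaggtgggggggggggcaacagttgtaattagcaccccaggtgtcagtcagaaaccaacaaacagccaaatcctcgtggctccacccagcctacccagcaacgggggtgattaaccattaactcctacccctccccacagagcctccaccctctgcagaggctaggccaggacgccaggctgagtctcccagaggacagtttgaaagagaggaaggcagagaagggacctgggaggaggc
Foxa1, chr12:57546062-57546361, minus strand: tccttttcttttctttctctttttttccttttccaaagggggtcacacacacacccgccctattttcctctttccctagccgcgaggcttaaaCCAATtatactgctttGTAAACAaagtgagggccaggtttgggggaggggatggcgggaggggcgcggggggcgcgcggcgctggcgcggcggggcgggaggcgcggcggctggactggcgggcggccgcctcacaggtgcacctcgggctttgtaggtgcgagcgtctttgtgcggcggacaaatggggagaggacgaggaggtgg

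Capitals in the upstream Nr5a2 window are a TATA motif (TATAAA, read on the other strand) starting 181 bases before the start site. The downstream Nr5a2 window holds a C/EBP motif (TTGCNNAA) starting at 243 bases before its start and a CCAAT motif at 92 bases before. The Hnf4a window holds a CCAAT motif, and the Foxa1 window a CCAAT motif and a FOXA motif (TGTTTAC or TATTTAC). Among 32817 windows of the same length, the C/EBP motif was in 10.8%, the FOXA motif in 6.54%, TATAAA in 13.6% and CCAAT in 37.4%. HNF4 (CAAAGTCCA or CAAAGGTCA), NR5A2 (CAAGGTCA) and ONECUT (ATCGAT) motifs had no match in any of the 12 windows of the 8 genes. Their shares of the 32817 windows were 0.95%, 1.56% and 0.93%, too low for a lack of matches in 12 windows to be informative. A match describes letters only, and no motif overlapped another.

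The order of the levels was Hnf4a, Foxa2, Cebpb, Foxa3, Cebpa, Onecut1, Nr5a2 and Foxa1, with means over all libraries of 43.4, 28.0, 23.0, 14.2, 9.07, 4.64, 2.70 and 2.48 RPKM, a scale that allows levels of different genes to be compared. The ranges over libraries did not overlap between neighbours in this order down to Onecut1. Onecut1, Nr5a2 and Foxa1, at the low end, could not be put in order, because the range of each overlapped that of its neighbour. Hnf4a was as abundant as, or more abundant than, 81.5% of tested genes, and Foxa1 than 11.1%.

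**Figure D1:**
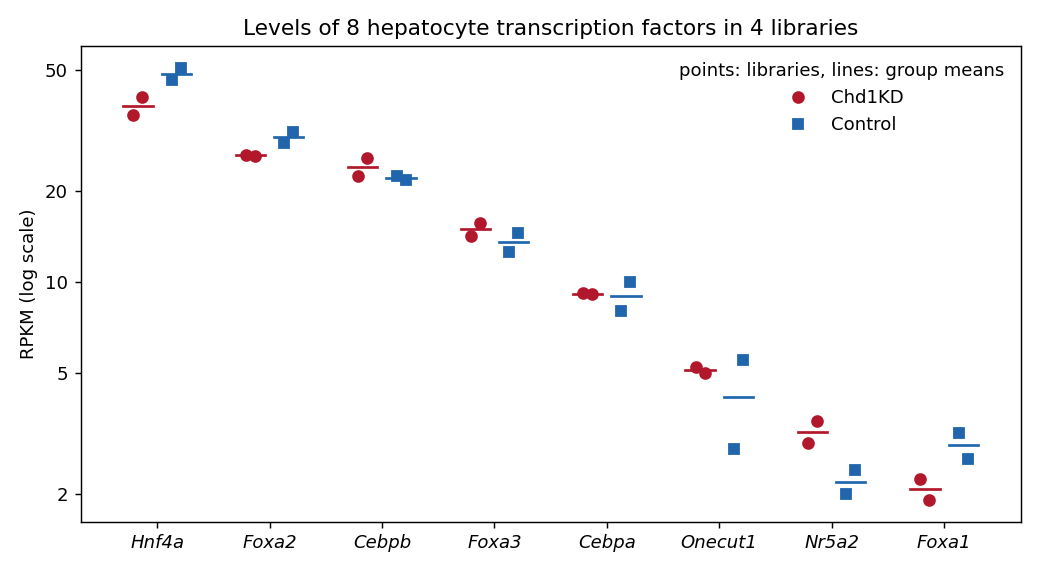
RPKM of each factor (log axis) in the Chd1KD libraries (circles, left) and the Control libraries (squares, right), with lines at the group means (n = 2 each). The groups do not overlap for Hnf4a, Foxa2, Cebpb, Nr5a2 and Foxa1, and the Control libraries of Onecut1 stand far apart, at 2.80 and 5.52 RPKM.

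None of the 8 factors passed the test across all genes (limma, adjusted p under 0.05, smallest adjusted p = 0.12), where 0.46% of tested genes did. At an unadjusted p under 0.05 were 4 of the 8, against 18.5% of all tested genes. Of these 4, Hnf4a, Foxa1 and Foxa2 were lower in Chd1KD, a direction and level reached by 11.3% of tested genes, and Nr5a2 was higher, as were 7.24%. The groups did not overlap for 5 of the 8 factors, or 62.5%, a share near the 51.8% of all tested genes. Of these, 2 were higher in Chd1KD, against 21.3% of all tested genes, and 3 were lower, against 30.5%. Nr5a2 was among the 4 and among the 5. With its length-weighted values it would be in neither count, as its groups overlapped (limma, unadjusted p = 0.64). The median log2 fold change of the 8 was 0.07 (5 positive, 3 negative), beside -0.02 over all tested genes, and it was -0.10 without Control replicate 1 and -0.05 with the length-weighted values of Nr5a2 given with that gene. In bulk RNA, fewer cells with a transcript and less of it per cell cannot be told apart.

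**Figure D2:**
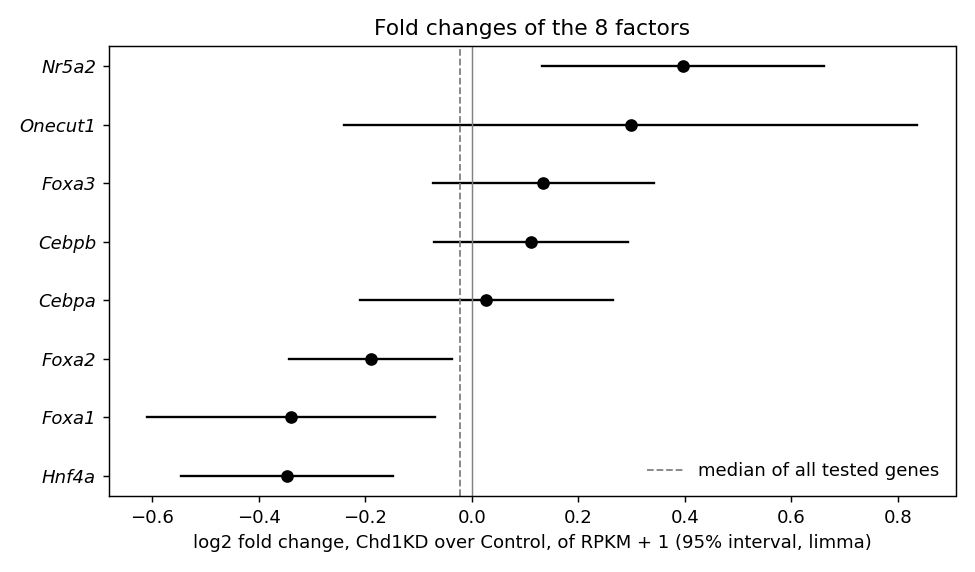
Log2 fold change of each factor on the RPKM + 1 scale, Chd1KD over Control, with its 95% interval (limma), n = 2 libraries per group. The intervals of Hnf4a, Foxa1 and Foxa2 lie below 0 and that of Nr5a2 above 0 before adjustment over all tested genes, and the other 4 span 0.

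Hnf4a lies on chromosome 2 from 163506811 to 163572907 (mm10, protein-coding). Its row, NM_008261, starts 33 bases from the RefSeq start site printed above and 40331 bases from the other, upstream start site of the gene, and as the only Hnf4a row it may also hold reads of exons that transcripts from the upstream start share. It measured 35.5 and 40.7 RPKM in Chd1KD, against 46.4 and 50.9 RPKM in Control. Both Chd1KD libraries lay below both Control libraries. The means were 38.1 ± 3.7 RPKM in Chd1KD and 48.6 ± 3.2 RPKM in Control (SD, n = 2 each), a ratio of 0.78. The log2 difference was -0.35 (SE 0.08), with a 95% interval from -0.55 to -0.15 (limma, adjusted p = 0.12). With the replicate number as a block, the SE was 0.05 and the adjusted p 0.030 (limma), in a fit that called 3.18% of tested genes.

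Nr5a2 lies on chromosome 1 from 136842562 to 136960448 (protein-coding) and was the only factor with 2 transcript rows. Summed over both, it measured 2.94 and 3.47 RPKM in Chd1KD, against 1.995 and 2.40 RPKM in Control. Both Chd1KD libraries lay above both Control libraries, with a ratio of 1.46 and a log2 fold change of 0.40 with an SE of 0.11 and a 95% interval from 0.13 to 0.66 (limma, adjusted p = 0.15). This value depended on how the 2 transcripts were added up.

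NM_001159769, from the downstream start site, measured 2.94 and 3.47 RPKM in Chd1KD, against 1.76 and 0.74 RPKM in Control. NM_030676, from the start site 6818 bases upstream, was listed at 0 in both Chd1KD libraries, against 0.23 and 1.66 RPKM in Control. It made up 11.8% of the summed Nr5a2 RPKM in Control replicate 1 and 69.1% in Control replicate 2. Thus both Chd1KD libraries had Nr5a2 assigned wholly to the downstream transcript, and the Control libraries differed from each other in the split. Fitted as transcript rows, NM_001159769 had a log2 fold change of 0.94 with an SE of 0.24 (limma, adjusted p = 0.24), in a fit that called 0 of 11965 rows, with 1715 at an unadjusted p under 0.05.

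The transcripts share 1619 exonic bases of 1756 in NM_001159769 and 4733 in NM_030676, by GENCODE models. The 3114 bases found only in NM_030676 include 2892 past the 3′ end of the other transcript. RPKM divides by length, so the same number of reads gives a higher RPKM when assigned to the shorter transcript. RPKM times transcript length in kilobases, summed over both, was 5.17 and 6.09 in Chd1KD, against 4.202 and 9.14 in Control. On this scale the Chd1KD values lay between the Control values. Length-weighted sums gave a log2 fold change of -0.13 (SE 0.26) and an opposite sign (limma, adjusted p = 0.83). Of 2432 tested genes with several rows, 60 changed sign under this weighting, or 2.47%, and 1 moved as far as Nr5a2 did, which was Nr5a2 itself. Genes lacking a transcript length kept plain sums and were counted too, so that share may be too low. Every length was known for 4088 of 4221 genes with several rows, tested or not. Rows at 0 in both Chd1KD and above 0 in both Control libraries were 5 of 5080 in tested genes with several rows. The opposite pattern held for 5 as well. These rows had a mean of at least 0.25 RPKM, a minimum set after the values were seen.

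**Figure D3:**
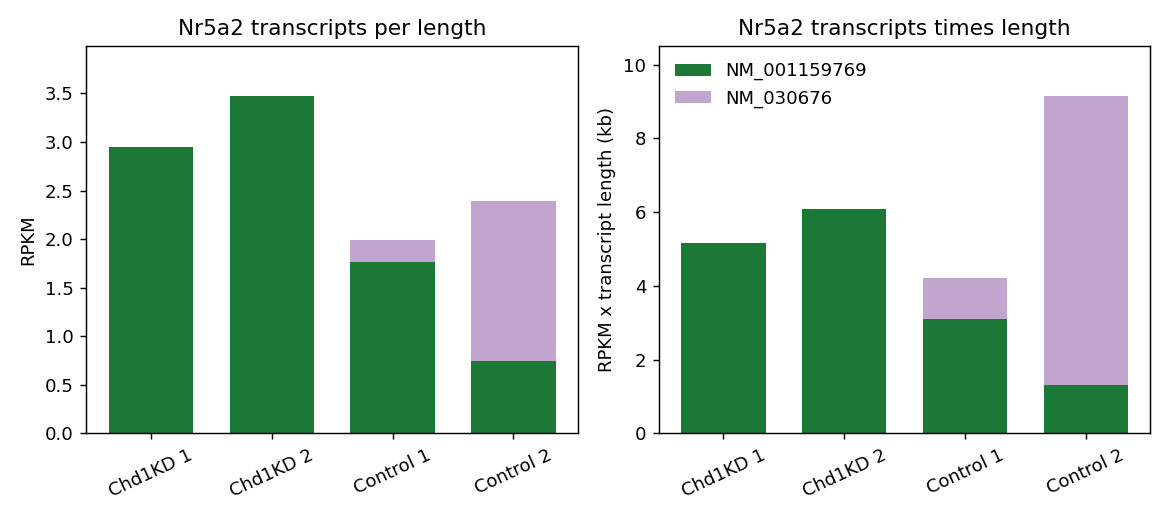
Nr5a2 by transcript in each library, as RPKM (left panel) and as RPKM times transcript length in kilobases (right panel), with NM_001159769 at the bottom of each bar and NM_030676 on top. The Chd1KD bars, at 2.94 and 3.47 RPKM, stand above the Control bars in the left panel, and lie between them in the right panel, at 5.17 and 6.09 against 4.202 and 9.14.

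Among the pioneer factors, Foxa2 was the most abundant and Foxa1 the least. Foxa1 (chromosome 12, 57540628 to 57548029) measured 2.24 and 1.91 RPKM in Chd1KD, against 3.18 and 2.61 RPKM in Control. Both Chd1KD libraries lay below both Control libraries. The log2 fold change was -0.34 (SE 0.11), with an interval from -0.61 to -0.07 (limma, adjusted p = 0.19).

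Foxa2 (chromosome 2, 148042877 to 148046969) measured 26.3 and 26.0 RPKM in Chd1KD, against 28.7 and 31.1 RPKM in Control. The Chd1KD libraries, nearly equal, lay below both Control libraries. The log2 fold change was -0.19 (SE 0.06), with an interval from -0.34 to -0.04 (limma, adjusted p = 0.20).

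Foxa3 (chromosome 7, 19013283 to 19023539) measured 14.2 and 15.7 RPKM in Chd1KD, against 12.6 and 14.5 RPKM in Control. The groups overlapped, with a log2 fold change of 0.13 and an interval from -0.07 to 0.34 (limma, adjusted p = 0.44). Foxa3 made up 33.3% and 36.0% of the summed FOXA RPKM in Chd1KD, against 28.3% and 30.0% in Control, while Foxa2 made up 61.5% and 59.6% in Chd1KD, against 64.6% in both Control libraries. The level of Foxa2 over that of Foxa3 was 1.85 and 1.66 in Chd1KD, against 2.28 and 2.15 in Control. The shift in the shares was not tested. The summed FOXA level was 42.7 and 43.5 RPKM in Chd1KD, against 44.5 and 48.2 RPKM in Control.

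Cebpa (chromosome 7, 35119293 to 35121928), a factor of hepatocyte and adipocyte differentiation, measured 9.18 and 9.11 RPKM in Chd1KD, against 8.04 and 9.96 RPKM in Control. The Chd1KD libraries lay between the Control libraries. The log2 fold change was 0.03 with an interval from -0.21 to 0.27 (limma, adjusted p = 0.91), which holds changes in either direction. Without Control replicate 1 it was -0.11 (limma, adjusted p = 0.51).

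Cebpb (chromosome 2, 167688915 to 167690432), the acute-phase member, measured 22.4 and 25.5 RPKM in Chd1KD, against 22.4 and 21.8 RPKM in Control. The lowest Chd1KD value lay just above the highest Control value, with a log2 fold change of 0.11 and an interval from -0.07 to 0.29 (limma, adjusted p = 0.47). Cebpb shares 312 exonic bases with Tmem189 on the opposite strand, which measured 36.2 and 34.4 RPKM in Chd1KD and 35.1 and 36.4 RPKM in Control. The strand setting is not given in the sources used here, so reads of the 2 genes in that stretch cannot be told apart. Cebpb exceeded Cebpa by 2.44 and 2.80 times in Chd1KD, against 2.78 and 2.18 times in Control, which overlapped.

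Onecut1 (chromosome 9, 74861921 to 74889648) measured 5.23 and 5.02 RPKM in Chd1KD, against 2.80 and 5.52 RPKM in Control. Control replicate 1 was low and the other 3 libraries were alike. The log2 fold change was 0.30 (SE 0.23), with an interval from -0.24 to 0.84 (limma, adjusted p = 0.51). It was -0.09 without Control replicate 1 (limma, adjusted p = 0.65) and 0.69 without Control replicate 2 (limma, adjusted p = 0.025), so the direction rested on which Control library was used. In such fits the lone Control library is assumed to vary like the Chd1KD libraries. Onecut1 also shares 2171 exonic bases on the same strand with the noncoding gene Gm20649.

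**Figure D4:**
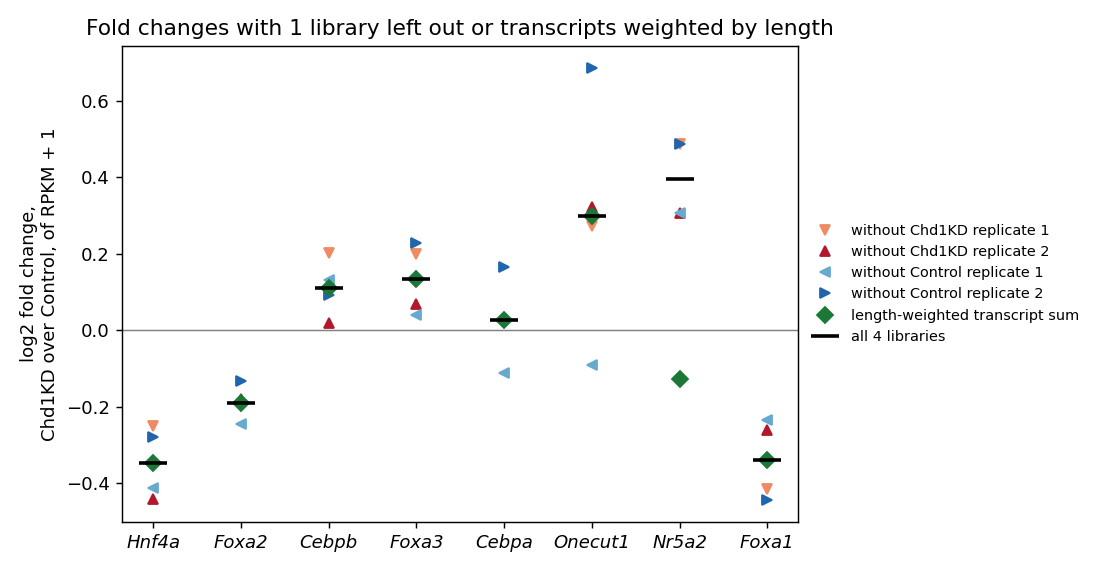
Log2 fold change of each factor (RPKM + 1 scale, Chd1KD over Control) with all 4 libraries (bars), with each library left out in turn (triangles) and with transcripts weighted by length (diamonds). The values of Hnf4a, Foxa1 and Foxa2 stay below 0 in all of these fits, Onecut1 runs from -0.09 to 0.69, and the diamond of Nr5a2 lies at -0.13.

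Genes with the nearest pattern over the 4 libraries were taken by the root mean square difference of centred log2(RPKM + 1) values, a description that rests on only 4 values a gene. For Hnf4a these were Atoh8, a basic helix-loop-helix factor, and Klf4, a zinc finger factor, with differences of 0.01 and 0.02. For Foxa1 they were Arhgef39 and Pole2, for Foxa2 Rai1 and Sugp2, for Foxa3 Pdia5 and Dtwd2, for Cebpa Rapgef3 and Zkscan5, for Cebpb Odf2l, and for Nr5a2 Bcl2l14 and Prss22, with differences of at most 0.03. Onecut1 had no gene so near, with Lars2 and Gprc5c at 0.06 and 0.07. The genes near Nr5a2 were matched to its summed RPKM. As RPKM times length its pattern differed, at 5.17 and 6.09 in Chd1KD, against 4.202 and 9.14 in Control. Klf4 measured 11.8 and 13.1 RPKM in Chd1KD, against 15.3 and 16.5 RPKM in Control.

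Among 26 other transcription factors of liver identity and metabolism, 18 were tested and none passed the test (limma, smallest adjusted p = 0.18). The median log2 fold change was -0.07, with 12 of 18 negative, and 2 were at an unadjusted p under 0.05, or 11.1% against 18.5% of all tested genes. Nr1h4 (FXR, the bile acid receptor) measured 1.25 and 1.11 RPKM in Chd1KD, against 2.13 and 1.63 RPKM in Control. Both Chd1KD libraries lay below both Control libraries. Hhex, a homeobox factor of early liver, was at 40.5 and 43.6 RPKM in Chd1KD and 44.8 and 46.8 RPKM in Control.

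Of 19 dimer partners and cofactors of these factors, 17 were tested and none passed (limma, smallest adjusted p = 0.18), with a median of 0.01 that turned to -0.05 without Control replicate 1. Ncoa3, a nuclear receptor coactivator, measured 15.7 and 15.6 RPKM in Chd1KD, against 13.5 and 13.8 RPKM in Control. Ctnnb1 (beta-catenin) measured 160.6 and 162.2 RPKM in Chd1KD, against 188.2 and 178.5 RPKM in Control. Nr0b2 (SHP), the corepressor of HNF4A and NR5A2, was listed at 0 in every library. Of the other C/EBP genes, Ddit3 (CHOP, a stress-induced partner) measured 18.8 and 17.7 RPKM in Chd1KD, against 16.4 and 10.8 RPKM in Control (limma, adjusted p = 0.24), and Cebpg had a log2 fold change of 0.02 (limma, adjusted p = 0.91). Cebpd, under the filter, measured 1.13 and 1.01 RPKM in Chd1KD, against 0.44 and 0.62 RPKM in Control.

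Textbook targets of the factors were mostly low or listed at 0. Of 22 matched HNF4A targets only 5 were tested, and 14 were listed at 0 in all libraries, including Ttr, Apoa4, Apoc3 and G6pc, while Hnf4a itself was abundant. All 5 tested targets had negative fold changes (median -0.15), as had 5766 of all 10209 tested genes. None passed (limma, smallest adjusted p = 0.11). The changes were smallest for Mttp (-0.07) and Apoa2 (-0.04), whose groups overlapped. Pklr (liver pyruvate kinase) measured 5.67 and 4.99 RPKM in Chd1KD, against 6.91 and 7.30 RPKM in Control. Apob (apolipoprotein B, secreted by liver in lipoproteins) measured 8.32 and 9.92 RPKM in Chd1KD, against 11.7 and 13.6 RPKM in Control. Of the 5, 3 were at an unadjusted p under 0.05, against 18.5% of all tested genes.

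Of 12 NR5A2 targets, 8 were listed at 0 in all libraries and 2 were tested, Plk3, a polo-like kinase, and Scarb1, a lipoprotein receptor. Scarb1 measured 43.2 and 40.1 RPKM in Chd1KD, against 40.0 and 37.9 RPKM in Control, and neither gene passed (limma, smallest adjusted p = 0.27). Of 12 FOXA targets 6 were tested, with a median of -0.05, or 0.08 without Control replicate 2, and none called. Afp had the smallest p of these, with 55.2 and 58.3 RPKM in Chd1KD, against 29.9 and 39.7 RPKM in Control (limma, adjusted p = 0.077). The adjusted p was 0.0028 to 0.035 with any library left out (limma), in fits where 1 group holds a single library that is assumed to vary like the other group. Igfbp1, an insulin-like growth factor binding protein, measured 30.0 and 41.1 RPKM in Chd1KD, against 42.5 and 69.8 RPKM in Control. Thus FOXA targets with the smallest p lay on both sides. Alb was low in Control replicate 1, as Onecut1 was, with 42.2 and 53.0 RPKM in Chd1KD, against 18.6 and 55.6 RPKM in Control.

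Of 20 C/EBP targets, 15 were listed at 0 in all libraries, the acute-phase genes Hp, Orm1, Saa1 and Crp among them, and 4 were tested with a median of 0.25, or -0.03 without Control replicate 1. Tfrc (transferrin receptor) measured 73.1 and 75.4 RPKM in Chd1KD, against 62.5 and 65.9 RPKM in Control. Cdkn1a (p21, a CDK inhibitor) measured 132.9 and 110.1 RPKM in Chd1KD, against 110.4 and 88.4 RPKM in Control, groups that overlapped. Ass1, a urea cycle enzyme, measured 5.04 and 6.46 RPKM in Chd1KD, against 5.33 and 9.88 RPKM in Control, groups that overlapped as well, and was the only tested target of this list with a negative fold change (-0.31). None of the 4 passed (limma, smallest adjusted p = 0.15).

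Biliary markers were the list with the lowest median, -0.36, and all 5 tested of 10 had negative fold changes without passing (limma, smallest adjusted p = 0.10). Sox9, a transcription factor of biliary and progenitor cells, measured 12.6 and 15.2 RPKM in Chd1KD, against 16.3 and 18.8 RPKM in Control. Krt7, a keratin of bile ducts, measured 4.56 and 3.45 RPKM in Chd1KD, against 5.98 and 6.58 RPKM in Control. Krt19, another such keratin, was under the filter, with 0.09 and 0 RPKM in Chd1KD, against 1.13 and 1.04 RPKM in Control. The other untested markers were near 0 in every library, with differences in both directions. The summed level of the list was 160.1 and 164.3 RPKM in Chd1KD, against 224.8 and 198.7 RPKM in Control. Spp1 (osteopontin), the tested gene of smallest p in the list, made up most of that sum, with 131.9 and 137.0 RPKM in Chd1KD, against 188.8 and 161.7 RPKM in Control. The part of these genes in the values of Hnf4a, Foxa1 and Foxa2 was not tested.

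**Figure D5:**
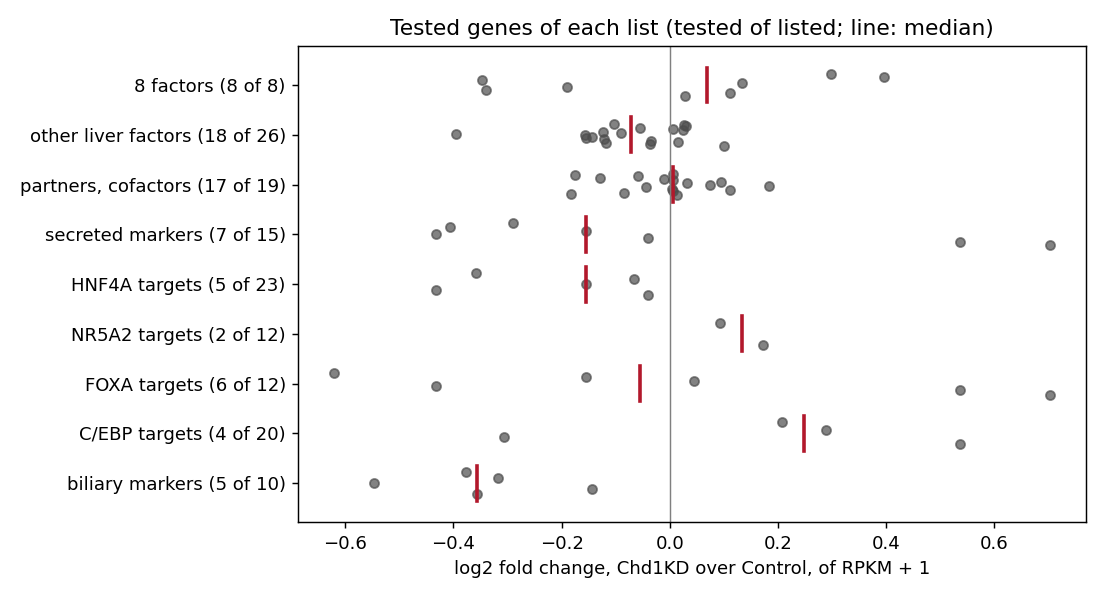
Log2 fold change (RPKM + 1 scale, Chd1KD over Control) of each tested gene (points) with list medians (lines), and tested of listed genes beside each name. The 8 factors spread from -0.35 to 0.40, the other liver factors have a median of -0.07, and the 5 biliary markers all lie below 0.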

How the data were processed

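Per the file headers, the authors deposited RPKM values for 30582 RefSeq transcript rows in each of 4 libraries. Cufflinks 1.3.0, TopHat 1.4.1 and mm10 are named in the submitters' processing notes. The sources used here do not give the annotation release, strand setting or scaling. The 4 single-library tables equalled the series table, which was used.

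Rows were named by RefSeq accession in NCBI's GRCm38.p6 gene table, whose assembly is that of mm10 (29999 rows), or GENCODE M21 (184 rows), leaving 399 unnamed, and RPKM was summed per gene. Genes averaging 1 RPKM or more entered a limma fit (version 3.58.1, R 4.3.3) of log2(RPKM + 1), which understates changes of low genes, with the variance trended on the mean, without covariates, and with Benjamini-Hochberg adjustment over all tested genes. With 2 libraries a side, exact permutation cannot reach 0.05 and was not used. Low values did not give relative depth, since the commonest ratio to Control replicate 1 held for at most 39 of 376 low transcripts. RefSeq promoters were found for all 8 factors. Named genes were the factors, Chd1, up to 3 genes of smallest p per list where none was called, the 3 most abundant secreted markers, and the 2 nearest patterns per factor. Alb, Apoa2, Mttp, Hhex, Cebpd, Krt19, Nr0b2, Tmem189 and genes given as listed at 0 were named after their values were seen. A few of the genes so chosen go unreported in this text. The factors and lists were chosen with earlier results of these data known. Figures used matplotlib 3.10.9.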

Additional observations from a re-analysis of the deposited data

How the results depend on the processing

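Alternatives changed the pseudocount, filter, scaling, variance model, gene value and replicate block, or left out each library; length-weighted sums and transcript rows were chosen after seeing the data. The filter at a mean of 5 RPKM left no value for Foxa1, Onecut1 and Nr5a2. The number of factors called, 0 with all libraries, was 1 with the replicate block (Hnf4a, -0.35, limma, adjusted p = 0.030) and 0 to 1 with a library left out (Onecut1, without Control replicate 2). Fits without a library take the spread from the other group. Fold changes with a library left out ran from -0.44 to -0.25 for Hnf4a, -0.44 to -0.23 for Foxa1, -0.25 to -0.13 for Foxa2, 0.04 to 0.23 for Foxa3, -0.11 to 0.17 for Cebpa, 0.02 to 0.20 for Cebpb, -0.091 to 0.69 for Onecut1 and 0.31 to 0.49 for Nr5a2. Nr5a2 turned to -0.13 with length-weighted sums, and was 0.94 with its most abundant transcript. The replicate numbers carry no stated pairing (deviations of same-numbered libraries correlated at 0.22 across genes). Over all genes 47 were called, against 0 without a filter (limma), 71 with a filter at 5 RPKM, 6 without a variance trend, 92 with a robust trend, 325 with the replicate block, 12 with the most abundant transcript, and 49 to 236 with a library left out. Among listed genes, with a library left out, Cebpg ran from -0.0037 to 0.038 and Ass1 from -0.70 to 0.084. No listed gene was called with all libraries; with the replicate block Afp, Apob, Rbp4, Trf, Igfbp1, Cdkn1a and Sox9 passed, and with a library left out Afp, Alb, Apob, Rbp4, Ddit3, Igfbp1, Spp1 and Krt7 passed in at least 1 fit, as did Krt19 with a filter at 0.5 RPKM. With 2 libraries per group and unknown depth, a gene that was not called may still have changed. The intervals are not adjusted over all tested genes and are not limits of detection. Those of Hnf4a, Foxa1, Foxa2 and Nr5a2 left out 0, and none of these genes was called with all libraries.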
